A study of Homo sapiens with 12 samples.

Results

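Lysosomal hydrolases, their activators and lysosomal membrane proteins were examined gene by gene in 2 acute myeloid leukemia (AML) cell lines treated with JOA (Jiyuan oridonin A, an ent-kaurene diterpenoid). The 47 genes were chosen by gene symbol, with earlier results of these data in view, and each of them had a row among the 20030 rows of the expression table. The rule itself names no value or threshold, and which earlier values, if any, prompted the list is not recorded. Counts and medians over the genes are therefore descriptions, and each adjusted p belongs to 1 gene in a fit over all genes. MOLM-13 and THP-1 are human AML lines with rearrangements of MLL (KMT2A). MOLM-13 carries a FLT3/ITD mutation and THP-1 has wild-type FLT3. MOLM-13 cells received 0.5 μM JOA, THP-1 cells received 2 μM, and the controls of both lines received DMSO. All cells were incubated for 48 h, and each of the 4 groups held 3 libraries, 12 in all. The study asked how JOA changes gene expression in these lines, and dose and line cannot be told apart because they differ together. Each group is 1 cell line, and nothing states that its libraries came from separate cultures, so p-values measure only the spread between these libraries.

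Lysosomes digest protein, glycan and lipid with acid hydrolases that are tagged with mannose-6-phosphate in the Golgi and sorted into the organelle. Small activator proteins lift lipids out of membranes for some of these enzymes, and heavily glycosylated membrane proteins line the organelle and carry its products out. Monocytes and macrophages are rich in lysosomes, and many lysosomal genes hold a short promoter element that is bound by TFEB, TFE3 and related factors of the MiT/TFE family.

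Expression was given in FPKM, a unit in which fragments are scaled to exon length and to the mapped fragments of the library, which allows levels of different genes to be set side by side. The summed FPKM of a library lay between 291127 and 325023, and the log2 values of libraries of a line correlated at 0.988 to 0.996. At most 0.01002% of compared values were identical between libraries of a line. Read depth could not be recovered from the FPKM values and is unknown. All 8 myeloid and leukemia markers had a mean of at least 1 FPKM in every group. The 3 erythroid markers were at 0 in every group, the summed level of 5 T and B cell markers was at most 4.11 FPKM in any library, and that of 4 fibroblast and epithelial markers was at most 3.56 FPKM.

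The lysosomal genes as a group took a larger share of the summed FPKM after JOA in both lines. The share was 0.407%, 0.397% and 0.404% in the control MOLM-13 libraries and 0.501%, 0.424% and 0.439% with JOA. In THP-1 cells it was 0.760%, 0.843% and 0.939% in the controls and 1.02%, 0.967% and 1.06% with JOA. The JOA libraries thus lay above the control libraries in both lines, without overlap. PPT1 alone held much of the THP-1 sum. Without it the summed FPKM of the other genes was 1475, 1739 and 1948 in THP-1 controls and 1945, 1988 and 2212 with JOA. The ranges of these sums met, but unlike the shares they are not scaled to the library total. That total was 291127 for the JOA library at 1945 and 298093 for the control library at 1948. Shares without PPT1 were not calculated. In MOLM-13 cells the sums without PPT1 were 1208, 1171 and 1202 in the controls and 1533, 1283 and 1297 with JOA. In these bulk libraries, a change in the number of expressing cells and a change in RNA per cell cannot be told apart.

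In MOLM-13 cells, 45 of the 47 genes passed the filter on low values (a mean of at least 0.1 FPKM over the 6 libraries of the line), and 40 of them were higher with JOA, where 52.4% of all tested genes were higher. The differences were small. The median log2 fold change, measured on log2(FPKM + 0.1), was 0.17 over the lysosomal genes and 0.01 over all 11693 tested genes, and single genes ranged from -0.05 for SCARB2 to 0.38 for CD68. Every JOA value exceeded every control value in 12 of the 45 genes, against 5.1% of all genes, and 25 of the 45 were higher in 3 of 3 same-numbered pairs, against 18.5%. An unadjusted p under 0.05 with a higher level was found in 12 of them, against 2.54% of all genes. A gene was called where limma gave an adjusted p (Benjamini-Hochberg) under 0.05 and the log2 fold change reached 0.58 in size, the thresholds of the study, and this held for 0 lysosomal genes and 0 of all genes (0%). The study used these thresholds with DESeq, a method for counts that was not run here, and reported up- and down-regulated genes in each line. In 481 of all genes in MOLM-13 cells the unadjusted p by limma was under 0.05, and the smallest adjusted p was 0.406. A fit with replicate number as a block also gave 0 calls, with a smallest adjusted p of 0.223. These counts leaned on JOA replicate 1: without it, 31 of the 45 genes were higher, with a median of 0.09.

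In THP-1 cells, 46 genes passed the filter and 43 were higher with JOA, where 56.7% of the 12712 tested genes were higher. The exceptions were CTSK, LGMN and IDUA, each at a mean below 1 FPKM in control THP-1 cells. The median log2 fold change was 0.24 over the lysosomal genes and 0.02 over all genes, and single genes ranged from -0.40 for IDUA to 0.71 for SMPD1. No JOA value reached down to a control value in 23 of the 46, against 14.6% of all genes, and 31 were higher in 3 of 3 same-numbered pairs, against 29.3%. The unadjusted p was under 0.05, with a higher level, in 23 of the 46, against 10.9% of all genes. At both thresholds limma called 17 of all genes (0.134%) and 0 lysosomal genes. On the adjusted p alone, a rule added after the values were seen, 4 lysosomal genes passed: CTSL, LAMP1, ARSB and MCOLN1. That rule passed 0.189% of all genes in the higher direction. It passed 0 lysosomal genes when any 1 of the 6 libraries was left out, and 0 without the trend in eBayes. Without control replicate 1, 34 of the 46 genes were higher, with a median of 0.18.

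Replicate numbers were taken to pair the libraries, from correlations in these same data, as no label states a pairing. A block for them gave larger THP-1 counts. With the block, SMPD1 and TPP1 passed both thresholds (adjusted p = 0.00841 and 0.0201 by limma), where 0.637% of all genes did in the higher direction. The adjusted p alone then passed for 21 of the 46 genes, all higher, against 5.37% of all genes. The median difference within the same-numbered pairs of THP-1 libraries was 0.38, 0.19 and 0.19 on the log2 scale, and within the MOLM-13 pairs it was 0.29, 0.09 and 0.11. The pair numbered 1 was thus the highest in each line. With 3 libraries against 3 and no pairing, an exact permutation test of 1 gene cannot go below p = 0.1.

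**Figure D1:**
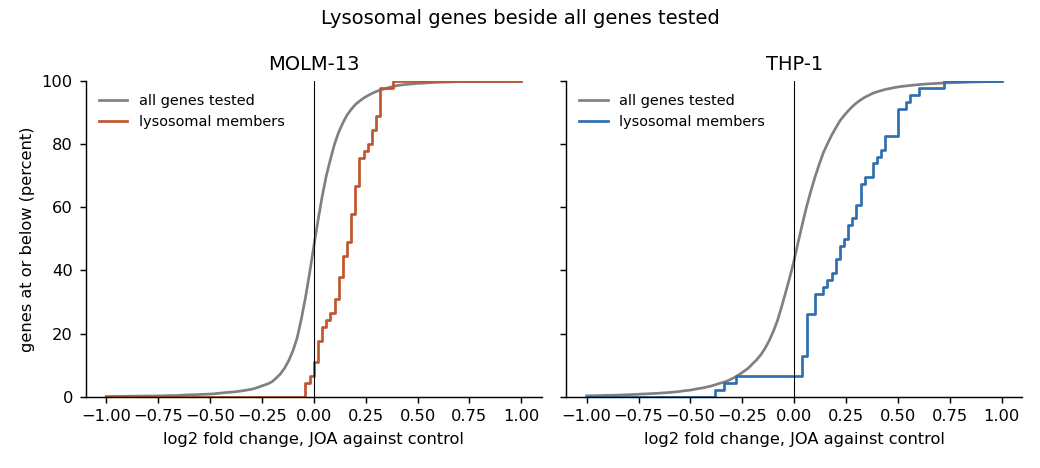
Cumulative share of genes (percent, vertical axis) at or below each log2 fold change of JOA against control (horizontal axis), in grey for all genes tested and in color for the lysosomal genes that passed the filter, with 1 panel per line. The lysosomal curve lies to the right of the grey one in both panels, with a median of 0.17 against 0.01 in MOLM-13 cells and 0.24 against 0.02 in THP-1 cells.

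The promoters of the lysosomal genes were searched for the binding element of the MiT/TFE factors. RefSeq promoter windows on GRCh38.p14, from 250 bases before to 50 bases after a gene's start, were found for 35 of the 47 genes. The core of the CLEAR element, TCACGTGA, is its own reverse complement and occurred in 6 of the 35 (17.1%): CLN3, CTSA, GAA, LAMP1, MCOLN1 and PLBD2. Among all 27305 genes with a window, 321 (1.18%) held it. The M-box type TCACATGA, searched on both strands, also occurred in 6 of the 35 (17.1%), against 1.24% of all genes. The plain E-box CACGTG, which lies inside the CLEAR core, occurred in 11 of the 35 (31.4%), against 8.77%, and the antioxidant response core TGACNNNGC in 17 (48.6%), against 16.1%. Windows were also found for 33 other lysosomal genes, from a list described below. Among those, TCACGTGA occurred in 6 (18.2%) and CACGTG in 10 (30.3%), shares near those of the 35. TCACATGA occurred in 0 of the 33, and TGACNNNGC in 9 (27.3%). These are matches of letters and not sites of binding. The 250 bases before the start of 4 of the genes with the CLEAR core are shown because these genes were among the highest-ranked in 1 or the other line. All lie on the plus strand, and capitals mark the CLEAR core:
LAMP1 (chr13:113296989-113297238): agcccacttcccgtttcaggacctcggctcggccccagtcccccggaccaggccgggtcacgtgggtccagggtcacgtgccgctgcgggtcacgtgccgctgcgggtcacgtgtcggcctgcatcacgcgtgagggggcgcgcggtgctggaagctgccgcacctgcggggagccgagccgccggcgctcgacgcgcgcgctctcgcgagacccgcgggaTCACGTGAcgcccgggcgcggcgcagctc
MCOLN1 (chr19:7522374-7522623): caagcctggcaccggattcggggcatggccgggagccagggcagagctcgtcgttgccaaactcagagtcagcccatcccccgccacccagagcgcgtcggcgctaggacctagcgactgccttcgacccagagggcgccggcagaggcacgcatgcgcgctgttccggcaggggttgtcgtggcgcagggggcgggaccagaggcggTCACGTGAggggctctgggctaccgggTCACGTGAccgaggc
PLBD2 (chr12:113358337-113358586): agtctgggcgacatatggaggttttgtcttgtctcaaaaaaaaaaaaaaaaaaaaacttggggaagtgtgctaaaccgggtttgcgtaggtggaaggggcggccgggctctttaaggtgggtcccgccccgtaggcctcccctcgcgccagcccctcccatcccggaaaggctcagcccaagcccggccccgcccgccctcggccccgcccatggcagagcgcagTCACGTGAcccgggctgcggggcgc
GAA (chr17:80101331-80101580): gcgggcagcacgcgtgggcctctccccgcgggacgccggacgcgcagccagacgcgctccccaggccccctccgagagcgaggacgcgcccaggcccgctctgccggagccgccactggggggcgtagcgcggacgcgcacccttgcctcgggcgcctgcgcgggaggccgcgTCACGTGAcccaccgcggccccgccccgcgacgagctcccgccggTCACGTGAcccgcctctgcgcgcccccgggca
The first base of the core lay 25 bases before the start in PLBD2, at -42 and -15 in MCOLN1, and at -77 and -32 in GAA. LAMP1 had a core at -29 and another at -2, which crosses the start and is not whole in the run shown, and 4 further CACGTG matches between -192 and -142. The GC content of the runs was 76.0% in LAMP1, 70.8% in MCOLN1, 63.6% in PLBD2 and 81.2% in GAA. After JOA, in THP-1 cells the 6 genes with the core had a median log2 fold change of 0.38, and the 28 tested genes with a window and no core had 0.26. In MOLM-13 cells the medians were 0.16 and 0.19. The order of the 2 sets thus differed between the lines.

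Among the cathepsins and other proteases, CTSL was the gene with the smallest p in THP-1 cells. CTSL, a cysteine endopeptidase, lies at chr9:87726119-87731469. Its level was 17.7, 20.6 and 18.3 FPKM in control THP-1 cells and 26.5, 26.9 and 29.6 FPKM with JOA. In MOLM-13 cells the level of CTSL was 5.12, 5.70 and 5.18 FPKM in the controls and 5.76, 6.97 and 7.14 FPKM with JOA. The JOA values lay above all control values in both lines. The log2 fold change of CTSL was 0.55 in THP-1 cells (standard error, SE, 0.07, adjusted p = 0.0394 by limma) and 0.30 in MOLM-13 cells (SE 0.10, adjusted p = 1.00). Annotated CTSL pseudogenes could share its reads. TPP1, a tripeptidyl peptidase, was at 24.2, 33.9 and 36.5 FPKM in control THP-1 cells and at 45.8, 42.8 and 52.0 FPKM with JOA, also without overlap. Its log2 fold change in THP-1 cells was 0.59 (SE 0.15), past the fold threshold, with a limma adjusted p of 0.114 (0.0201 under the block). In MOLM-13 cells TPP1 was at 69.7, 72.5 and 61.5 FPKM in the controls and at 87.6, 71.3 and 69.1 FPKM with JOA, and the groups overlapped.

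CTSD, the aspartic protease, had the highest mean level of the proteases over the 12 libraries, although CTSZ was higher in MOLM-13 cells (means of 75.8 and 72.8 FPKM in the controls). CTSD was at 137, 155 and 205 FPKM in control THP-1 cells and at 218, 206 and 269 FPKM with JOA. The log2 fold change of CTSD was 0.49 in THP-1 cells (SE 0.15), with a limma adjusted p of 0.174 (0.00876 under the block). In MOLM-13 cells CTSD was at 78.9, 70.0 and 69.4 FPKM in the controls and at 114, 77.9 and 74.3 FPKM with JOA, where JOA replicate 1 stood above the other libraries. CTSA, the carboxypeptidase that protects GLB1 and NEU1, had log2 fold changes of 0.23 in MOLM-13 and 0.33 in THP-1 cells, the latter with an adjusted p of 0.0203 by limma under the block and 0.137 without it. CTSZ, a cysteine carboxypeptidase, was at 83.1, 68.9 and 75.4 FPKM in control MOLM-13 cells and at 118, 83.1 and 83.4 FPKM with JOA. The lowest JOA value of CTSZ lay just above the highest control value, and its log2 fold change of 0.31 (SE 0.14, limma adjusted p = 1.00) was the largest of the proteases in MOLM-13 cells, against 0.06 in THP-1 cells. For the cysteine protease CTSB the log2 fold change was 0.17 in MOLM-13 cells, higher in 3 of 3 pairs, and 0.06 in THP-1 cells. CTSC, CTSH and CTSS had -0.05, 0.04 and 0.11 (MOLM-13) and 0.05, 0.09 and 0.14 (THP-1). CTSK, the collagenase of osteoclasts, had -0.29 in THP-1 cells and 0.11 in MOLM-13 cells at means between 0.693 and 1.49 FPKM. LGMN, the asparaginyl endopeptidase, was below the filter in MOLM-13 cells and at most 0.241 FPKM in any library. Of the tested proteases, 9 of 10 were higher in MOLM-13 cells (median 0.16) and 9 of 11 in THP-1 cells (median 0.09).

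The glycosidases differed little as a group, with medians of 0.15 in MOLM-13 (10 of 12 higher) and 0.13 in THP-1 cells (11 of 12 higher). GAA, the acid alpha-glucosidase that breaks down glycogen, had the smallest p of the lysosomal genes in MOLM-13 cells. Its level there was 10.9, 10.9 and 10.2 FPKM in the controls and 14.1, 13.6 and 12.0 FPKM with JOA. The groups did not overlap, with a log2 fold change of 0.31 (SE 0.08, adjusted p = 1.00 by limma, 0.244 under the block). In THP-1 cells GAA was at 19.3, 24.4 and 25.2 FPKM in the controls and at 21.3, 23.5 and 26.7 FPKM with JOA, and these values overlapped. MAN2B1, the lysosomal alpha-mannosidase, was at 53.5, 58.8 and 59.2 FPKM in control MOLM-13 cells and at 66.6, 66.2 and 63.7 FPKM with JOA, without overlap (log2 fold change 0.20, SE 0.06, adjusted p = 1.00 by limma). In THP-1 cells the log2 fold change of MAN2B1 was 0.08.

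In THP-1 cells the log2 fold change was 0.43 for GUSB, the beta-glucuronidase, and 0.31 for NEU1, the sialidase. With the block, these were the 2 glycosidases with an adjusted p under 0.05 by limma, 0.0165 for GUSB and 0.0129 for NEU1, against 0.191 and 0.168 without it. GUSB has 10 annotated pseudogenes that could share its reads. The galactosidase GLA was at 23.5, 23.6 and 24.1 FPKM in control THP-1 cells and at 26.8, 25.0 and 29.8 FPKM with JOA. FUCA1, the alpha-L-fucosidase, spread widely among THP-1 libraries, from 1.56 to 3.74 FPKM in the controls and from 2.18 to 4.08 FPKM with JOA. In each THP-1 pair the JOA value of FUCA1 was the higher one, with a log2 fold change of 0.26 (SE 0.32). HEXA, GALC, GLB1, NAGLU and MANBA had log2 fold changes between 0.03 and 0.22 in THP-1 cells and between -0.03 and 0.17 in MOLM-13 cells. IDUA, the alpha-L-iduronidase of heparan and dermatan sulfate breakdown, went the other way. It was at 0.667, 0.846 and 1.19 FPKM in control THP-1 cells and at 0.489, 0.661 and 0.813 FPKM with JOA, lower in 3 of 3 pairs, while the groups overlapped (log2 fold change -0.40, SE 0.23, adjusted p = 0.433 by limma).

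The log2 fold change of all 4 sulfatases was above 0 in both lines, with medians of 0.05 in MOLM-13 and 0.24 in THP-1 cells. In MOLM-13 cells it was 0.08 for ARSA, 0.004 for ARSB and 0.02 for SGSH, each smaller than its SE. Each of these genes was lower with JOA in 2 same-numbered MOLM-13 pairs and higher in 1, while IDS was higher in every pair. ARSB, the sulfatase of dermatan and chondroitin sulfate, accounted for the largest difference of the 4 in THP-1 cells. Its level was 5.46, 5.19 and 5.36 FPKM in control THP-1 cells and 7.90, 7.46 and 7.15 FPKM with JOA. These groups were far apart relative to their spread, with a log2 fold change of 0.48 (SE 0.06, adjusted p = 0.0394 by limma). In MOLM-13 cells ARSB was at 4.81, 4.33 and 4.81 FPKM in the controls and at 4.71, 4.21 and 5.09 FPKM with JOA, a log2 fold change of 0.00. IDS, the iduronate sulfatase, had log2 fold changes of 0.20 (MOLM-13) and 0.43 (THP-1), the latter with a limma adjusted p of 0.0182 under the block and of 0.161 without it. ARSA, which acts on sulfatide, and SGSH, the heparan N-sulfatase, had 0.04 and 0.03 in THP-1 cells.

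Lipid hydrolases, phosphatases and PLBD2 were higher in all 6 tested genes of both lines, with medians of 0.17 in MOLM-13 and 0.32 in THP-1 cells. The largest difference of all the lysosomal genes was that of SMPD1, the acid sphingomyelinase. It was at 1.54, 1.61 and 1.99 FPKM in control THP-1 cells and at 2.80, 2.72 and 3.04 FPKM with JOA. These values did not overlap, with a log2 fold change of 0.71 (SE 0.11), and the adjusted p by limma was 0.0543 without the block and 0.00841 with it. In MOLM-13 cells SMPD1 was at 1.33, 1.86 and 1.26 FPKM in the controls and at 2.44, 1.79 and 1.36 FPKM with JOA, where 1 JOA library stood high and the groups overlapped. LIPA, the lysosomal acid lipase of cholesteryl esters, was at 43.1, 45.1 and 50.4 FPKM in control MOLM-13 cells and at 55.4, 50.3 and 54.3 FPKM with JOA. Control replicate 3 and JOA replicate 2 of LIPA met at the edge, and the log2 fold change was 0.21 in MOLM-13 and 0.27 in THP-1 cells (adjusted p = 0.149 by limma, 0.0283 under the block).

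PLBD2, a phospholipase B domain protein, was at 5.12, 5.92 and 6.16 FPKM in control THP-1 cells and at 7.60, 7.18 and 7.42 FPKM with JOA. The log2 fold change of PLBD2 was 0.37 (SE 0.08, adjusted p = 0.0878 by limma, 0.0304 under the block). ASAH1, the acid ceramidase, had 0.49 in THP-1 cells (adjusted p = 0.201 by limma, 0.0106 under the block) and 0.18 in MOLM-13 cells. PPT1, the palmitoyl-protein thioesterase, was at 839, 774 and 852 FPKM in control THP-1 cells and at 1013, 884 and 949 FPKM with JOA, without overlap (log2 fold change 0.21, SE 0.07, adjusted p = 0.212 by limma, 0.0421 under the block). In MOLM-13 cells PPT1 was at 91.9, 79.8 and 85.8 FPKM in the controls and at 96.3, 84.5 and 82.3 FPKM with JOA. ACP2, the lysosomal acid phosphatase, had log2 fold changes of 0.17 in MOLM-13 and 0.16 in THP-1 cells. ACP5, the tartrate-resistant acid phosphatase, was below the filter in both lines, at most 0.101 FPKM in any library and at 0 in 6 of them.

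Activators and other soluble proteins were higher in 4 of 4 genes in both lines. All 4 were higher in 3 of 3 pairs of each line, against 18.5% (MOLM-13) and 29.3% (THP-1) of all genes. The median log2 fold change of the 4 was 0.28 in MOLM-13 and 0.24 in THP-1 cells. PSAP, the precursor of the saposins, was at 53.1, 66.6 and 71.5 FPKM in control MOLM-13 cells and at 83.0, 73.3 and 80.5 FPKM with JOA. In THP-1 cells PSAP was at 125, 199 and 247 FPKM in the controls and at 163, 222 and 282 FPKM with JOA. The MOLM-13 groups of PSAP did not overlap and the THP-1 groups did, although each THP-1 pair had the JOA value higher. The log2 fold changes were 0.32 in MOLM-13 (adjusted p = 1.00 by limma) and 0.25 in THP-1 cells (adjusted p = 0.688, and 0.0348 under the block).

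GRN, progranulin, had a like spread among the THP-1 libraries. It was at 89.0, 108 and 109 FPKM in control MOLM-13 cells and at 132, 120 and 122 FPKM with JOA, without overlap (log2 fold change 0.30, SE 0.09, adjusted p = 1.00 by limma). The THP-1 controls of GRN were at 79.7, 129 and 185 FPKM and the JOA libraries at 116, 138 and 194 FPKM. NPC2, the soluble cholesterol carrier, was at 22.1, 28.2 and 32.6 FPKM in control THP-1 cells and at 39.2, 37.1 and 42.4 FPKM with JOA. These groups of NPC2 did not overlap, with a log2 fold change of 0.53 (SE 0.13, adjusted p = 0.103 by limma, 0.0180 under the block). In MOLM-13 cells NPC2 was at 23.6, 23.2 and 27.4 FPKM in the controls and at 30.2, 27.3 and 31.2 FPKM with JOA, with a log2 fold change of 0.26. GM2A, the activator of GM2 ganglioside breakdown, was at 20.1, 19.7 and 20.4 FPKM in control MOLM-13 cells and at 22.8, 22.2 and 22.2 FPKM with JOA, a small difference without overlap (log2 fold change 0.16, SE 0.05).

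In THP-1 cells all 9 membrane proteins were higher in 3 of 3 pairs, against 29.3% of all genes. In 8 of the 9 the JOA values lay above all control values, against 14.6% of all genes. The lipid hydrolases, phosphatases and PLBD2 had a like pattern, with 6 and 5 of their 6 tested genes. The median log2 fold change of the membrane proteins was 0.32 in THP-1 cells and 0.12 in MOLM-13 cells, where 7 of 9 were higher. LAMP1, a structural membrane glycoprotein (chr13:113297239-113323672), was at 127, 130 and 135 FPKM in control THP-1 cells and at 180, 165 and 169 FPKM with JOA. The log2 fold change of LAMP1 was 0.39 (SE 0.05, adjusted p = 0.0394 by limma). In MOLM-13 cells LAMP1 was at 143, 113 and 116 FPKM in the controls and at 155, 127 and 123 FPKM with JOA, higher in each pair but overlapping. MCOLN1, a calcium channel of the lysosome (the gene with cores at -42 and -15), was at 4.07, 3.77 and 3.89 FPKM in control THP-1 cells and at 5.92, 5.44 and 5.36 FPKM with JOA. Its log2 fold change was 0.50 in THP-1 cells (SE 0.07, adjusted p = 0.0466 by limma), and 0.02 in MOLM-13 cells, where the levels were 7.65, 7.68 and 6.86 FPKM in the controls and 7.62, 8.06 and 6.76 FPKM with JOA.

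LAMP2, the other structural glycoprotein, was at 28.9, 27.7 and 30.9 FPKM in control THP-1 cells and at 36.4, 34.8 and 35.2 FPKM with JOA (log2 fold change 0.28, SE 0.05, adjusted p = 0.0755 by limma, 0.0188 under the block). In MOLM-13 cells LAMP2 stayed between 26.6 and 28.5 FPKM in all 6 libraries. CD68, a macrophage membrane glycoprotein, had nearly the same fold change in both lines. It was at 60.5, 56.96 and 54.6 FPKM in control MOLM-13 cells and at 91.3, 68.3 and 66.3 FPKM with JOA. In THP-1 cells CD68 was at 122, 135 and 135 FPKM in the controls and at 182, 166 and 157 FPKM with JOA. Neither pair of groups overlapped, with log2 fold changes of 0.38 (SE 0.12, adjusted p = 1.00 by limma, 0.244 under the block) and 0.36 (SE 0.07, adjusted p = 0.0755, 0.0254 under the block).

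CTNS, the cystine exporter, was at 6.04, 6.74 and 6.31 FPKM in control MOLM-13 cells and at 8.08, 7.14 and 7.495 FPKM with JOA, without overlap (log2 fold change 0.25, SE 0.08). SCARB2, the sorting receptor of glucocerebrosidase, was at 20.01, 23.6 and 25.9 FPKM in control THP-1 cells and at 29.4, 28.5 and 28.4 FPKM with JOA (log2 fold change 0.32, SE 0.09, adjusted p = 0.136 by limma, 0.0485 under the block). In MOLM-13 cells SCARB2 had -0.05. CLN3, the membrane protein of Batten disease, had log2 fold changes of 0.19 in MOLM-13 and 0.42 in THP-1 cells (adjusted p = 0.201 by limma, 0.0308 under the block). The cholesterol exporter NPC1 had 0.10 and 0.32. CD63, a tetraspanin, was at 181, 174 and 186 FPKM in control THP-1 cells and at 183, 186 and 187 FPKM with JOA, the membrane protein whose THP-1 groups overlapped.

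**Figure D2:**
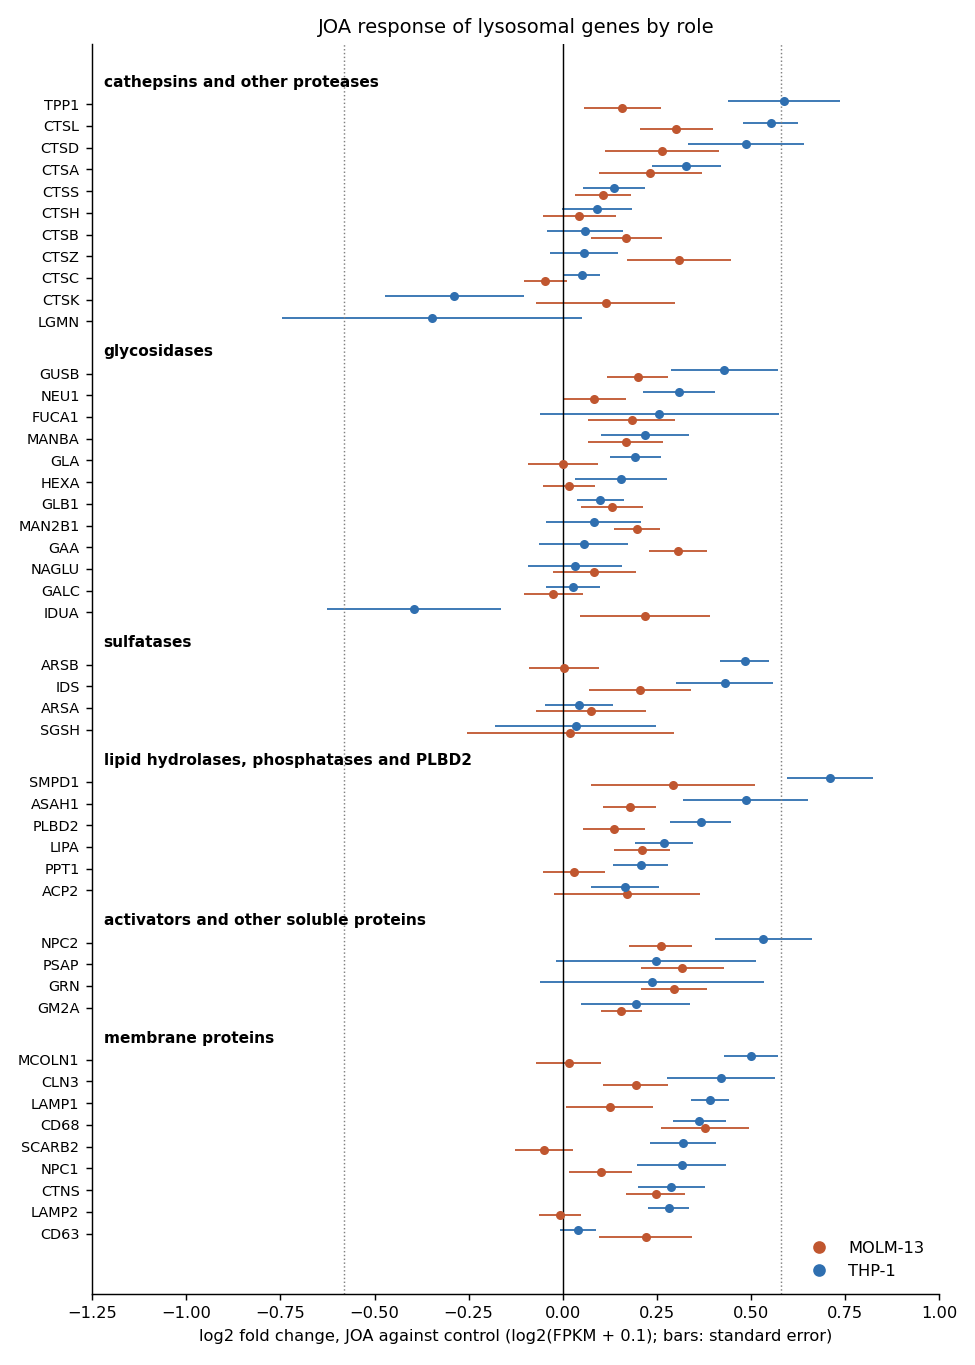
Log2 fold change of JOA against control (horizontal axis, on log2(FPKM + 0.1), with standard errors as bars) for every lysosomal gene that passed the filter, grouped by role, with MOLM-13 in orange and THP-1 in blue and dotted lines at -0.58 and 0.58. Most points lie right of 0 in both lines, and SMPD1 (0.71) and TPP1 (0.59) in THP-1 cells lie past the fold threshold.

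**Figure D3:**
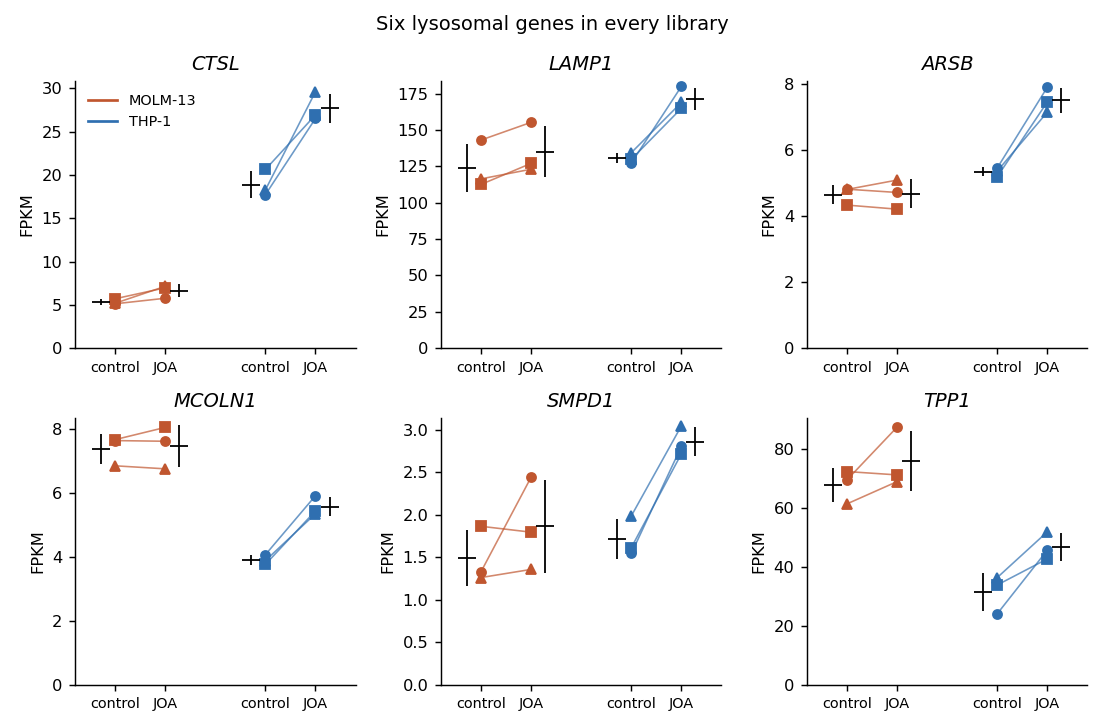
FPKM (vertical axis, from 0) of 6 genes in each of the 12 libraries, with lines joining libraries of the same replicate number and black bars for the mean ± SD of 3 libraries. In THP-1 cells every JOA value of these genes lies above every control value, while the MOLM-13 groups overlap for LAMP1, ARSB, MCOLN1, SMPD1 and TPP1.

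Cathepsins, glycosidases and membrane proteins were set side by side by their medians, whose differences were not tested. In THP-1 cells the medians were 0.09 for proteases, 0.13 for glycosidases and 0.32 for membrane proteins. In MOLM-13 cells they were 0.16, 0.15 and 0.12. Over all 6 role groups the medians ran from 0.09 (proteases) to 0.32 (membrane proteins) in THP-1 cells and from 0.05 (sulfatases) to 0.28 (activators) in MOLM-13 cells. Each group held genes with differences near 0 beside genes with larger ones. In THP-1 cells the proteases ranged from -0.35 to 0.59, the glycosidases from -0.40 to 0.43 and the membrane proteins from 0.04 to 0.50.

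An interaction of line and treatment, fitted over all 12 libraries, asked whether the JOA response differed between the lines. The response was larger in THP-1 cells in 31 of the 45 genes tested, with a median difference of 0.07 on the log2 scale, where it was 0.02 over all genes. Without THP-1 control replicate 1 this held for 24 genes (median 0.02), and without THP-1 control replicate 3 for 35 (median 0.18). The median was also 0.15 without MOLM-13 JOA replicate 1, 0.03 without MOLM-13 JOA replicate 2, 0.11 without THP-1 JOA replicate 1 and 0.12 after rescaling to TPM. The share of all genes with a larger response in THP-1 cells was not counted. Limma called 0 lysosomal genes and 0 of 12626 genes (0%) at an adjusted p under 0.05, while 914 of all genes had an unadjusted p under 0.05. Of the 45 lysosomal genes, 4 were among those, a share near that over all genes. They were MCOLN1, ARSB, LAMP2 and SCARB2, each with a larger response in THP-1 cells. The difference of the responses was 0.48 for MCOLN1 and for ARSB (SE 0.11 each), 0.29 for LAMP2 (SE 0.07) and 0.37 for SCARB2 (SE 0.12). Their adjusted p by limma was 0.387, 0.387, 0.387 and 0.520. Under the block it was 0.0659, 0.0684, 0.0986 and 0.186, and 6 of all genes passed, none of them a lysosomal gene. The response of CD68 differed by -0.01 between the lines (SE 0.15).

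The lines already differed in lysosomal gene levels without JOA. Of 45 genes tested between the control libraries, limma called 29 at both thresholds, where 44% of the 12635 tested genes were called. Of the 29, 18 were higher in THP-1 cells (25% of all genes were) and 11 were lower (19%). The median log2 fold change, THP-1 against MOLM-13, was 0.27 over the lysosomal genes and 0.06 over all genes. That median of 0.27 was 0.18 without THP-1 control replicate 3 and 0.42 without THP-1 control replicate 1. In each role group but one, genes were called in both directions: 4 proteases higher and 2 lower, 6 glycosidases higher and 3 lower, 2 sulfatases higher and 1 lower, 2 lipid hydrolases and phosphatases higher and 2 lower, 3 membrane proteins higher and 3 lower. Of the activators, 1 was higher and 0 lower. By the mean over all 12 libraries, the 5 highest levels were those of PPT1, LAMP1, CTSD, PSAP and GRN. In the MOLM-13 controls the 5 highest means were those of LAMP1 (124 FPKM), GRN (102), PPT1 (85.8), CTSZ (75.8) and CTSD (72.8), and in the THP-1 controls those of PPT1 (821), PSAP (190), CD63 (180), CTSD (166) and CTSZ (163). CTSZ and CTSD differed by less than their SD in each line.

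PPT1 had the largest difference of the lysosomal genes, with a mean of 85.8 ± 6.04 FPKM in control MOLM-13 cells and 821 ± 41.8 FPKM in control THP-1 cells (SD, n = 3). The ratio of the means was 9.57 and the log2 fold change 3.26 (SE 0.07, adjusted p = 3.79e-08 by limma). SCARB2 was at 5.14, 5.30 and 5.27 FPKM in control MOLM-13 cells, well under its THP-1 levels, with a log2 fold change of 2.12. CTSL (log2 fold change 1.80), the beta-galactosidase GLB1 (1.69) and CD63 (1.56) followed. GLB1 was at 14.7, 15.1 and 15.8 FPKM in control MOLM-13 cells and at 45.2, 50.5 and 53.0 FPKM in control THP-1 cells. CD63 was at 66.9, 55.9 and 61.4 FPKM in the MOLM-13 controls, again below every THP-1 value. PSAP, CD68 and CTSD had log2 fold changes of 1.53, 1.19 and 1.17.

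Lower levels in THP-1 cells were found for FUCA1 and GLA among the glycosidases. FUCA1 was at 8.24, 6.70 and 7.34 FPKM in control MOLM-13 cells and at 1.56, 2.59 and 3.74 FPKM in control THP-1 cells (log2 fold change -1.54, SE 0.26, adjusted p = 0.000923 by limma). GLA was at 57.8, 48.0 and 58.6 FPKM in control MOLM-13 cells, above its level of 23.5 to 24.1 FPKM in THP-1 cells (log2 fold change -1.20, SE 0.08). The other genes called lower in THP-1 cells were TPP1, CTSK, MAN2B1, ARSA, ASAH1, LIPA, MCOLN1, CTNS and CLN3. LAMP1, LAMP2, NPC1, NPC2, GUSB, SMPD1, GRN and NAGLU had adjusted p from 0.138 to 0.943 by limma between the control lines.

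**Figure D4:**
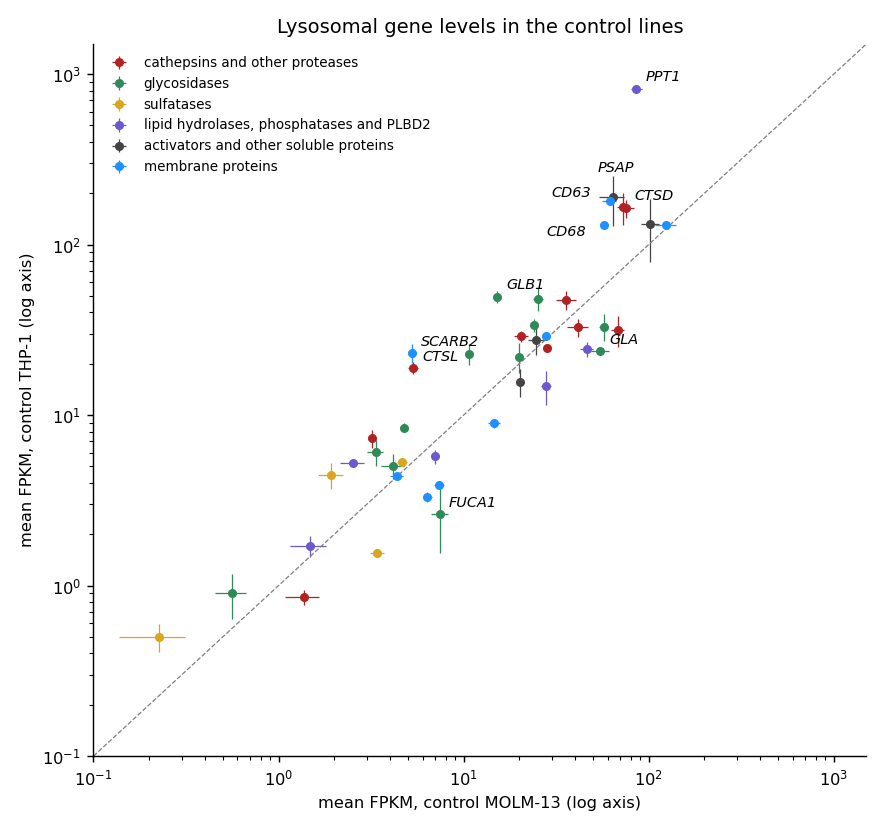
Mean FPKM of each lysosomal gene that passed the filter in control MOLM-13 cells (horizontal, log axis) and control THP-1 cells (vertical, log axis), colored by role, with bars for the SD of 3 libraries and a dashed line of equal levels. PPT1 stands farthest above the line, at 85.8 against 821 FPKM, and FUCA1 farthest below it, at 7.43 against 2.63 FPKM.

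The neighbors of PPT1 on chromosome 1 were looked at after its level had been seen. All 18 other tested genes with a position within 500 kb of PPT1 (chr1:40071461-40097252, GRCh38.p14) were called higher in control THP-1 cells, with log2 fold changes from 0.99 to 4.30 and a median of 2.64. CAP1, an actin regulator whose gene overlaps the end of PPT1 (chr1:40040240-40072648), was at a mean of 144 FPKM in control MOLM-13 cells and 845 FPKM in control THP-1 cells. Whether the authors' counting used strand is not given, so reads of the overlap cannot be assigned to 1 of them. MFSD2A, a lipid transporter, went from 12.8 to 116 FPKM, and ZMPSTE24, a protease that processes prelamin, from 27.2 to 199 FPKM. On the side of lower coordinates, MACF1, NDUFS5, MYCBP and RRAGC, whose midpoints lie at -799 to -1235 kb from that of PPT1, had log2 fold changes of -0.62, 0.33, -0.37 and 0.30. AKIRIN1, which lies among them at -1086 kb, was called higher in THP-1 cells, with 0.75 (adjusted p = 1.12e-05 by limma). On the other side, genes remained higher in THP-1 cells to the end of the stretch examined, with 1.70 for HIVEP3 at 1687 kb. Of all tested genes, 25% were called higher in THP-1 cells. The same window around SCARB2 held 0 of 7 genes called higher, that around GLB1 6 of 10, that around CD63 8 of 25 and that around CTSL 3 of 3. Around PSAP it held 2 of 8, around CD68 2 of 42 and around CTSD 1 of 6. Around FUCA1 and GLA, themselves lower in THP-1 cells, it held 1 of 15 and 2 of 13 called higher. These 2 windows held 3 of the 15 and 6 of the 13 called lower, where 19% of all genes were called lower.

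**Figure D5:**
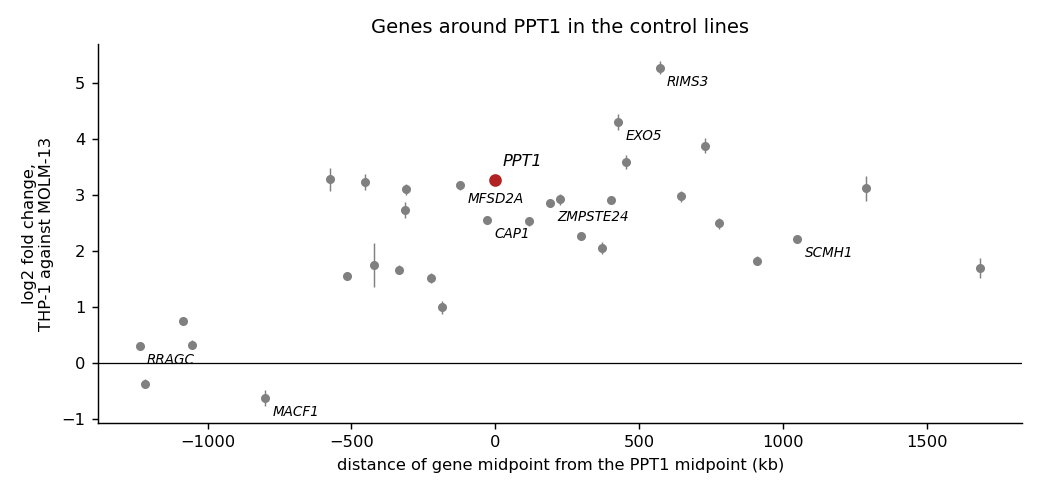
Log2 fold change of control THP-1 against control MOLM-13 cells (vertical axis, with standard errors as bars) for genes around PPT1, by the distance of their midpoints from that of PPT1 in kb (horizontal axis), with PPT1 in red. PPT1 (3.26) lies among neighbors that are also higher in THP-1 cells, while MACF1 (-0.62) and MYCBP (-0.37) at lower coordinates are not.

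Another 48 genes, of the lysosome and of its sorting, regulation and inhibition, were set beside the 47. They were listed by function, with earlier results of these data known. After JOA, 40 of 46 tested were higher in MOLM-13 cells (median log2 fold change 0.08), where 52.4% of all genes were. In THP-1 cells 39 of 47 were higher (median 0.17), where 56.7% of all genes were. In either line 0 were called, against 0% (MOLM-13) and 0.134% (THP-1) of all genes. At an unadjusted p under 0.05, 3 genes were higher in MOLM-13 cells, against 2.54% of all genes. In THP-1 cells 21 were, against 10.9%. Under the block, 11 of the 47 tested in THP-1 cells had an adjusted p under 0.05 by limma, against 5.37% of all genes. All 11 were higher, and 0 passed both thresholds. Other hydrolases were higher in 16 of 18 (MOLM-13) and 14 of 18 genes (THP-1). Genes of mannose-6-phosphate tagging and sorting were higher in 8 of 9 and 9 of 9. The cystatins, which inhibit cysteine cathepsins, were higher in 4 of 4 and 2 of 4 genes. Of the MiT/TFE factors, 4 of 4 were higher in MOLM-13 cells and 3 of 4 in THP-1 cells. TFE3 was at 6.87, 6.31 and 5.59 FPKM in control MOLM-13 cells and at 8.59, 7.57 and 7.02 FPKM with JOA. In THP-1 cells TFE3 was at 5.59, 5.85 and 6.90 FPKM in the controls and at 7.48, 7.62 and 8.23 FPKM with JOA. Its groups did not overlap in either line, with log2 fold changes of 0.30 and 0.35 (adjusted p = 1.00 and 0.121 by limma, 0.244 and 0.0203 under the block). TFEB had 0.16 and 0.06, TFEC 0.36 and 0.19, and MITF 0.02 and -0.15, in each case for MOLM-13 first and THP-1 second.

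Between the control lines, the other lysosomal genes with the largest differences were CST7, MCOLN3, CTSV, CTSW and SLC17A5. CST7, which encodes cystatin F, was at 66.4, 57.3 and 46.97 FPKM in control MOLM-13 cells and at 3.13, 1.14 and 0.482 FPKM in control THP-1 cells (log2 fold change -5.41, SE 0.52, adjusted p = 3.04e-05 by limma). MCOLN3, a relative of MCOLN1, was between 0 and 0.0277 FPKM in control MOLM-13 cells and between 3.05 and 3.13 FPKM in control THP-1 cells. The cathepsins CTSV and CTSW had log2 fold changes of 2.54 each and SLC17A5, the sialic acid exporter, had 1.70.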

How the data were processed

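Gene expression was measured by mRNA-seq (stranded mRNA libraries, 150 bp paired-end reads) in 12 libraries, and groups, doses and replicate numbers follow the sample labels. The authors deposited 1 table of FPKM values per gene and library. The submitters' processing notes name Trimmomatic, HISAT2, Cufflinks, HTSeq and hg38, without versions or roles, and whether counting used strand is not given. Of 20030 rows, 3488 were at 0 in all libraries, 27 had names that a spreadsheet had turned into dates and 2 names occurred more than once. FPKM holds no counts, low values showed no common step that would give the depth (the commonest ratio to the first library of a line was shared by at most 21 of 1437 low genes), and no counting interval is given.

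The 47 genes, the other lists and the comparisons were chosen with earlier results of these data known. FPKM values were used as deposited. Genes with a mean of at least 0.1 FPKM over the libraries of a fit were compared on log2(FPKM + 0.1) with limma 3.58.1 under R 4.3.3 (lmFit and eBayes, with a trend), over all genes, with Benjamini-Hochberg adjustment. Fold changes of low genes are understated on this scale. Calls needed an adjusted p under 0.05 and a log2 fold change of 0.58 or more in size, except in the interaction, where the adjusted p alone was used. DESeq, which the study used, needs counts and was not run. Genes described with the value of each library were those called in a JOA comparison, the 10 with the smallest p in each line, the 10 called genes with the largest fold change between control lines and the 5 with the highest mean FPKM. TFE3, CTSA, ASAH1 and other genes given by fold change, and the genes around PPT1, were chosen after their values were seen. The method was tested on simulated data without pairing. The planted changes were larger than any JOA difference of the lysosomal genes, so the simulation does not show how well differences of their size are found.

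The labels number the libraries alike in control and JOA groups, and the deviations of same-numbered libraries from their group means correlated at 0.398, 0.264 and 0.303 in MOLM-13 cells and at 0.282, 0.139 and 0.319 in THP-1 cells. Different numbers gave -0.256 to 0.0168 and -0.259 to -0.0280. Deviations within a group cancel out, so these values are not separate evidence of a pairing. From the same-number correlations, in these same data, the numbers were taken to pair the libraries. Values with the replicate number as a block stand beside results whose call they change. Alternatives covered the pseudocount, the filter, 2 rescalings, eBayes without a trend, the block, 1 fit on all libraries and leaving out each library. Promoter windows and gene positions came from RefSeq tables of GRCh38.p14, and pseudogenes from GENCODE. The curated gene sets of the study were not used here.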

Additional observations from a re-analysis of the deposited data

Results flagged for a closer look

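IDUA and CTSF, a lysosomal cysteine protease outside the 47 genes, stood out among 91 genes of the lists tested in both lines. In these 2, every same-numbered pair moved 1 way in 1 line and the opposite way in the other. The share of all genes that did so was not counted, so the 2 are a description and not a result about lysosomal genes. IDUA was higher with JOA in 3 of 3 MOLM-13 pairs, from 0.547, 0.668 and 0.458 FPKM in the controls to 0.645, 0.761 and 0.5801 FPKM, and lower in 3 of 3 THP-1 pairs. The JOA response of IDUA in THP-1 minus that in MOLM-13 cells was -0.61 in log2 units, with an adjusted p of 0.709 from limma. CTSF was at 0.546, 0.572 and 0.727 FPKM in control MOLM-13 cells and at 0.959, 0.634 and 0.792 FPKM with JOA. In THP-1 cells CTSF was at 0.200, 0.257 and 0.166 FPKM in the controls and at 0.147, 0.169 and 0.166 FPKM with JOA. The pair numbered 3 was nearly a tie, at 0.1663 FPKM in the control and 0.1658 FPKM with JOA. Its response differed by -0.55 (adjusted p = 0.663 by limma). Both genes were below 1.2 FPKM in every library, and neither difference passed the threshold.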

How the results depend on the processing

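Of the values of named genes under other settings, 521 kept their direction and their side of the threshold, 3 passed it newly and 0 reversed. The 3 were SMPD1 in THP-1 cells with a filter at a mean of 1 FPKM (0.71 on the log2 scale, limma adjusted p = 0.0412) and under the replicate block, and TPP1 under the block (0.59). Medians over the 47 genes kept their direction. The number of genes called in THP-1 cells was 17 and moved to 8 with a pseudocount of 1, 0 over genes with any value above 0, 1 without the trend, 161 with the replicate block, 51 in 1 fit on all 12 libraries, and 0 to 1 when a library was left out. Lysosomal genes called in THP-1 cells were 0 and became 1 with the higher filter and 2 with the block. The 4 lysosomal genes with an adjusted p under 0.05 became 0 over genes with any value above 0, 0 without the trend, 21 with the block, and 0 to 0 when a library was left out, so that the 4 rest on all 6 libraries. In MOLM-13 cells 1 gene was called over genes with any value above 0. In the interaction, 1 gene was called with a pseudocount of 1, 3 over genes with any value above 0 and 6 with the block. The median interaction of the 47 genes lay between 0.02, without THP-1 control replicate 1, and 0.18, without THP-1 control replicate 3. Between the control lines, where same-numbered libraries correlated at 0.131, 0.0776 and 0.0698, the block called 28 lysosomal genes in place of 29. The causes of these moves were not tested. Depth is unknown, so the precision of genes near 0 FPKM cannot be given.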
